A study of Rattus norvegicus with 2 samples.

Results

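Monocytes were taken from a single-cell RNA-seq series on rat meniscus (a crescent of fibrocartilage in the knee joint), which holds 1 library of aged meniscus and 1 library of young meniscus. The labels give the ages as aged and young and do not give strain, sex or the number of animals behind each library. In both libraries the tissue was cut up, digested with protease and then collagenase P, filtered and sorted for living cells, and 3' ends of transcripts were counted as UMIs (unique molecular identifiers, one for each captured transcript molecule). Barcodes needed 500 genes or more, and a mitochondrial UMI share of no more than 20%, to be kept. A kept barcode was called a monocyte with at least 10 UMIs of Lyz2, at least 1 of Csf1r and at least 3 of Cd14, Fcnb and Vcan together, fewer than 5 of the 3 C1q genes, fewer than 20 of Camp and Ngp, and fewer than 10 of Mpo, Elane and Prtn3. The rule found 463 monocytes among 14858 kept cells, 287 of 6085 in the aged library and 176 of 8773 in the young library.

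Monocytes are bone marrow derived white cells that circulate in blood and enter tissues, where they can become macrophages or dendritic cells. Classical monocytes carry Cd14, a co-receptor for bacterial lipopolysaccharide, and answer microbial or damage signals through the transcription factor NF-kB, which switches on cytokines, chemokines and its own inhibitors. Csf1r is the receptor for the growth factor that keeps monocytes and macrophages alive, and the same precursors give rise to osteoclasts in bone next to a joint.

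Markers of the rule and outside it were compared between classes. Fcnb, a ficolin of monocyte granules that was one of the genes of the rule, had a UMI in 94.4% of aged and 95.5% of young monocytes. It had one in 5.77% of aged and 5.26% of young C1q-positive macrophages. The rule asked monocytes, and not macrophages, for UMIs of Cd14, Fcnb and Vcan together, so Fcnb is no check of the label. Mnda, a nuclear factor of myeloid cells that the rule did not use, had a UMI in 76.3% of aged and 90.3% of young monocytes, against 0.620% of aged and 0.756% of young B lineage cells. Mnda did not separate monocytes from C1q-positive macrophages, where 67.3% of aged and 57.9% of young cells had a UMI. Cx3cr1, the chemokine receptor typical of non-classical monocytes, had a UMI in 4.88% of aged and 10.2% of young monocytes, and Ly6c was listed with 0 counts in both libraries. Fcnb also marked the progenitors defined by Mpo, Elane and Prtn3, with a UMI in 53.5% of aged and 51.3% of young progenitors. F13a1, a further monocyte marker outside the rule, had a UMI in 16.4% of aged and 6.25% of young monocytes. More of the C1q-positive macrophages had one, 50% of aged and 55.3% of young, as did 75.6% of aged and 61.5% of young progenitors. Of the markers outside the rule, Cx3cr1 and Ly6c were low or at 0, and F13a1 was more frequent in macrophages and progenitors. None of those listed here set monocytes apart from every other class. The cells are called monocytes below because they meet the rule.

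**Figure D1:**
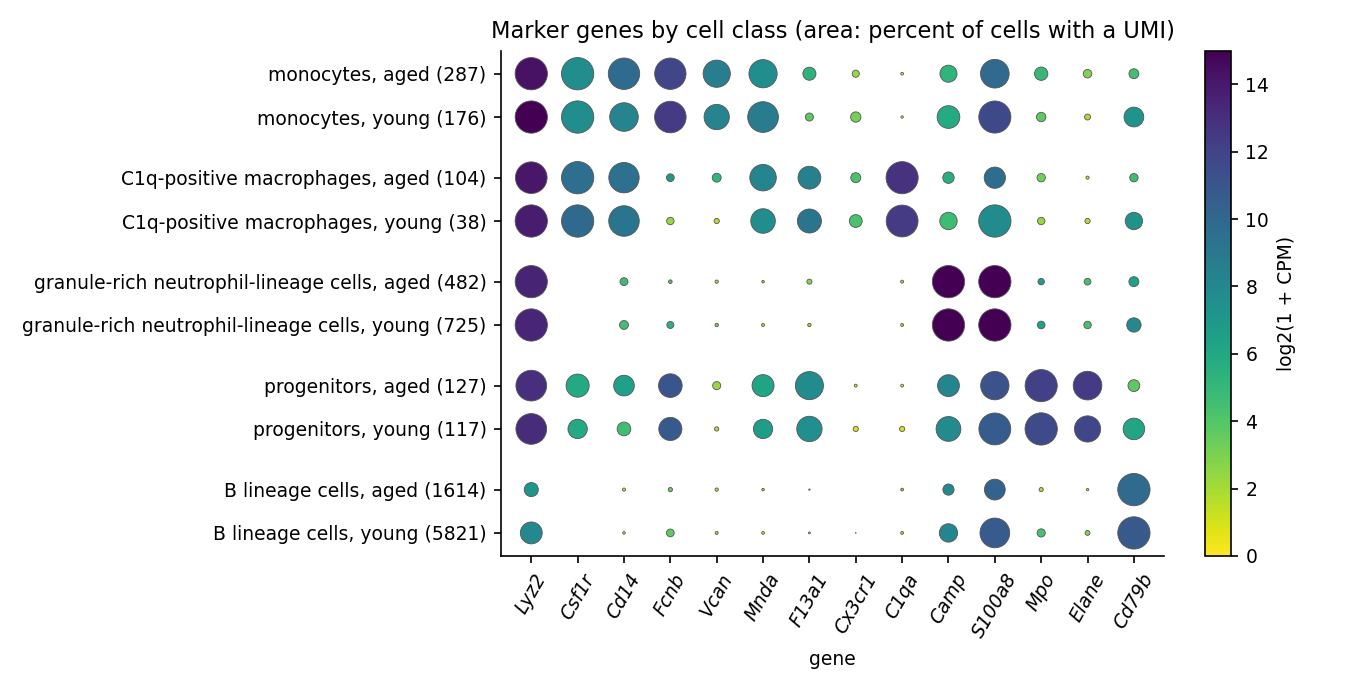
Marker genes (columns) in 5 cell classes of each library (rows, cell number in brackets), with dot area for the percent of cells with a UMI and colour for log2(1 + CPM). Fcnb and Vcan are large and dark in both rows of monocytes, C1qa is large in macrophages only, and Camp and S100a8 are darkest in neutrophil-lineage cells. Fcnb, Vcan, C1qa and Camp were among the genes of the rule.

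The edges of the rule were not empty. Of the monocytes, 15 aged and 9 young cells had only 3 to 5 UMIs of Cd14, Fcnb and Vcan together, and 81 aged and 151 young cells stayed outside only because they had 0 to 2. Exactly 1 UMI of Csf1r was found in 91 aged and 38 young monocytes, and 105 aged and 31 young cells stayed outside only because they had none. The C1q limit kept out 53 aged and 29 young cells, and the limit on Mpo, Elane and Prtn3 kept out 52 aged and 39 young cells. Lyz2 was far from its limit, with 10 to 19 UMIs in 4 aged and 0 young monocytes.

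Monocytes made up 4.72% of kept cells in aged meniscus (exact binomial 95% interval 4.20 to 5.28) and 2.01% in young meniscus (1.72 to 2.32). Of cells with at least 1 Csf1r UMI they were 48.2% in the aged library (44.2 to 52.3, of 595 cells) and 36.3% in the young library (32.0 to 40.7, of 485 cells). The intervals cover counting error only. With 1 library per age there is no measure of the spread between animals, so no difference below was tested and none has a replicate check. The share of kept cells also depends on what else the digest held. B lineage cells were found by at least 5 UMIs of Cd79a and Cd79b and no Csf1r. They numbered 1614 of 6085 kept cells in the aged library and 5821 of 8773 in the young library. The share of Csf1r-positive cells depends on the limit for Cd14, Fcnb and Vcan, which alone kept out 81 aged and 151 young cells.

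The libraries held 47228750 UMIs (aged) and 65051972 UMIs (young), of which aged monocytes gave 3758174 and young monocytes 2690182. A monocyte had a median of 11358 UMIs and 2604 genes in the aged library, against 13008.5 UMIs and 2873 genes in the young library. The median mitochondrial share was 4.43% in aged and 5.99% in young monocytes. The libraries shared 18 cell barcodes, of which 0 were monocytes.

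Counts were summed over the monocytes of each library and scaled to 1000000 per library (CPM). Of 8611 genes with at least 20 summed counts, 584 (6.78%) were at least 2-fold higher and 793 (9.21%) at least 2-fold lower in aged than in young monocytes. The median log2 ratio of aged over young was -0.17. For 263 genes toward aged and 183 toward young the whole 95% interval of the ratio, from counting error alone, lay beyond 2-fold. The split depended on scaling and on the cells and genes entered: with TMM factors, which move all ratios up by 0.16, 728 genes were higher and 567 lower, and with median-of-ratios factors, which move them by 0.17, 733 were higher and 555 lower. Without cells with UMIs of other lineages 801 were higher and 462 lower, and with each cell thinned to 2000 UMIs 438 were higher and 336 lower. Ratios below are of plain CPM, and list counts over all monocytes are to be read beside the 6.78% higher and 9.21% lower.

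Inflammatory gene groups stood well above the median of all genes. At least 2-fold higher in aged monocytes were 11 of 14 measured chemokine ligands, 13 of 18 cytokines and inflammatory enzymes, 19 of 22 NF-kB feedback genes and 16 of 28 interferon response genes. The same fold toward young was found in 1 chemokine ligand and in 0 genes of the other 3 lists. Over all measured genes 6.78% were at least 2-fold higher and 9.21% lower. The median log2 ratios of the 4 lists were 2.23, 1.88, 1.60 and 1.15, beside -0.17 over all genes. The lists were written with earlier results of these data known, so their counts are a description. In B lineage cells of the same libraries the medians of these 4 lists were -0.19, -0.02, 0.10 and 0.33. The median over all genes measured in B lineage cells was -0.65, so the 4 lists stood above it there too. In C1q-positive macrophages the list medians were 0.99, 1.40, 1.26 and 1.17, beside -0.19 over all genes.

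These counts are over all monocytes of a library, and the libraries lay largely in different subclusters. Clustering all monocytes together on 1000 variable genes outside the rule put 83 aged and 5 young cells in subcluster 2, 83 aged and 0 young in subcluster 3, and 64 aged and 9 young in subcluster 4. It put 9 aged and 81 young cells in subcluster 1 and 3 aged and 24 young in subcluster 7. Inflammatory genes were among those that could be used for clustering, so the sizes are no result, and a shift in the make-up of the class and a shift within its cells cannot be told apart here.

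Only subclusters 5 and 6 held at least 15 cells of each library. The first held 18 aged and 30 young cells and the second 19 aged and 23 young cells. Medians of the 4 lists were lower there than over all monocytes, but the medians over all genes differed too. In subcluster 5 at least 2-fold higher in aged cells were 3 of 4 chemokine ligands, 2 of 9 cytokines and inflammatory enzymes, 5 of 14 NF-kB feedback genes and 3 of 9 interferon response genes, against 4.62% of 4615 measured genes. The medians of the 4 lists were 1.58, -0.40, 0.63 and 0.61, beside -0.04 over all genes. In subcluster 6 the counts were 4 of 9 chemokine ligands, 2 of 10 cytokines and inflammatory enzymes, 1 of 15 NF-kB feedback genes and 5 of 11 interferon response genes, against 2.73% of 4366. Its medians were 0.71, -0.02, 0.17 and 0.97, beside -0.82 over all genes. Il1b had a log2 ratio of 2.29 (1.87 to 2.73) in subcluster 5 and 2.67 (2.26 to 3.11) in subcluster 6. Ccl2 had a log2 ratio of 2.07 in subcluster 5, and in subcluster 6 it had 1129 CPM in aged and 401 CPM in young monocytes. Cxcl2 had 1.38 in subcluster 5 and 0.45 in subcluster 6, and Nfkbia was even in both, at -0.08 in subcluster 5 and 0.00 in subcluster 6. S100a8 had -1.54 in subcluster 5 and -0.74 in subcluster 6. Subcluster 6 was led by genes of other lineages.

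**Figure D2:**
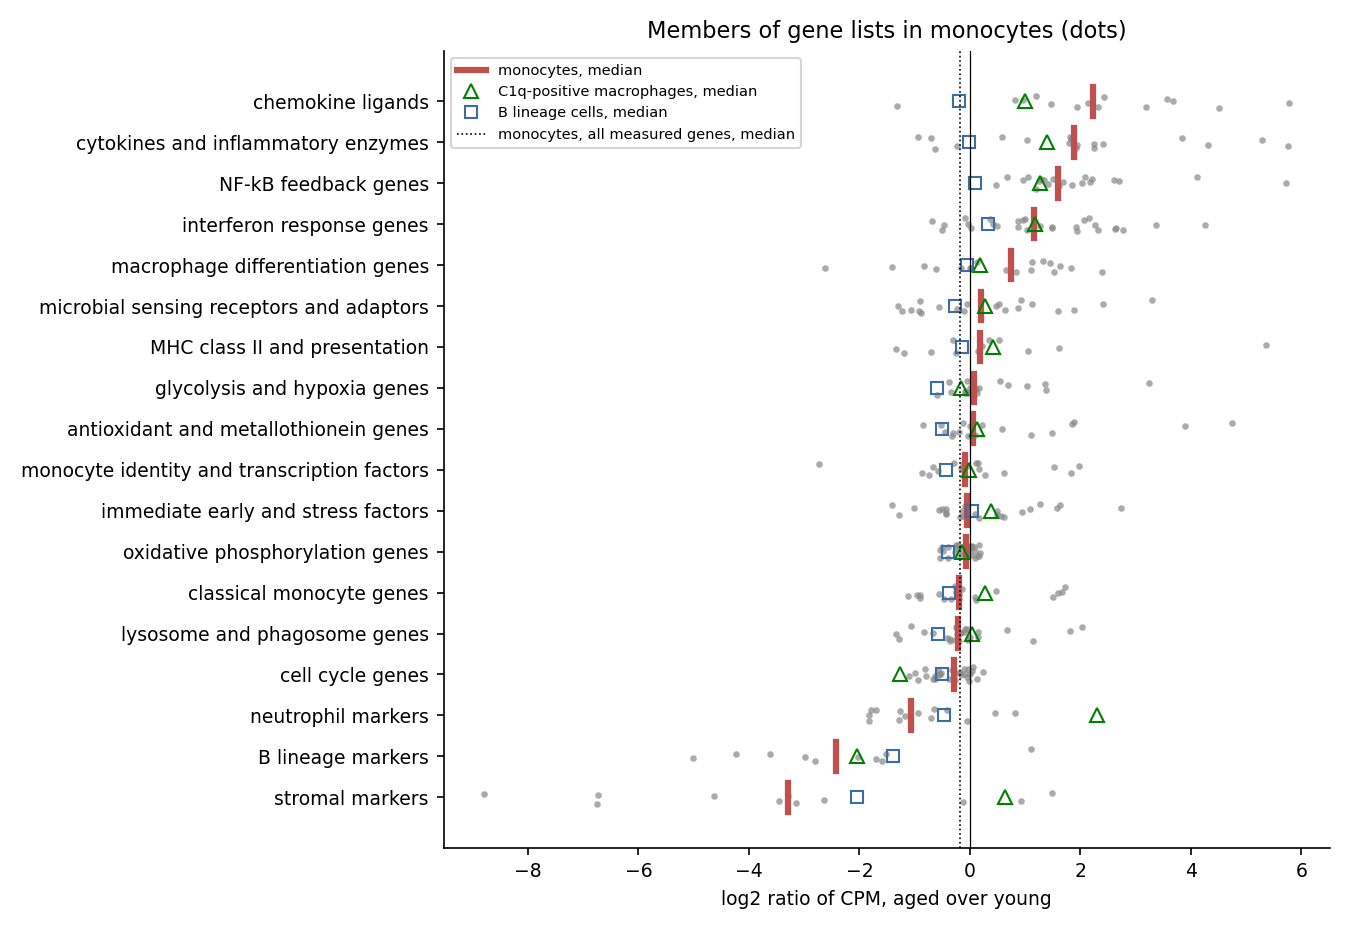
Log2 ratio of CPM, aged over young, for each measured member (dots) of 18 gene lists in monocytes, with list medians in monocytes (bars), C1q-positive macrophages (triangles) and B lineage cells (squares). Genes of the rule are included. The 4 inflammatory lists have medians from 1.15 to 2.23 in monocytes, and stromal and B lineage markers lie furthest to the left, at -3.29 and -2.41.

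Il1b, which encodes the inflammatory cytokine interleukin-1 beta, was at 3300 CPM in monocytes of the aged library and 165 CPM in those of the young one, a log2 ratio of 4.32 (4.18 to 4.46). The lower quartile, median and upper quartile were 2, 17 and 62.5 UMIs per cell in aged monocytes, and 0, 0 and 1.25 in young monocytes. The cell with the most Il1b had 559 UMIs in the aged and 45 in the young library. At an equal depth of 2000 UMIs, reached by thinning, Il1b was detected in 69.1% of 285 aged monocytes (63.4 to 74.4) and in 18.8% of 176 young monocytes (13.3 to 25.3). Without thinning the shares were 82.6% of aged and 34.1% of young monocytes. B lineage cells, which should lack the gene and whose median depth was 4434.5 UMIs in the aged and 3781 UMIs in the young library, gave 2.69% in the aged and 1.49% in the young library at the same thinned depth. The distributions of single cells overlapped, since aged monocytes without any Il1b were also present.

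**Figure D3:**
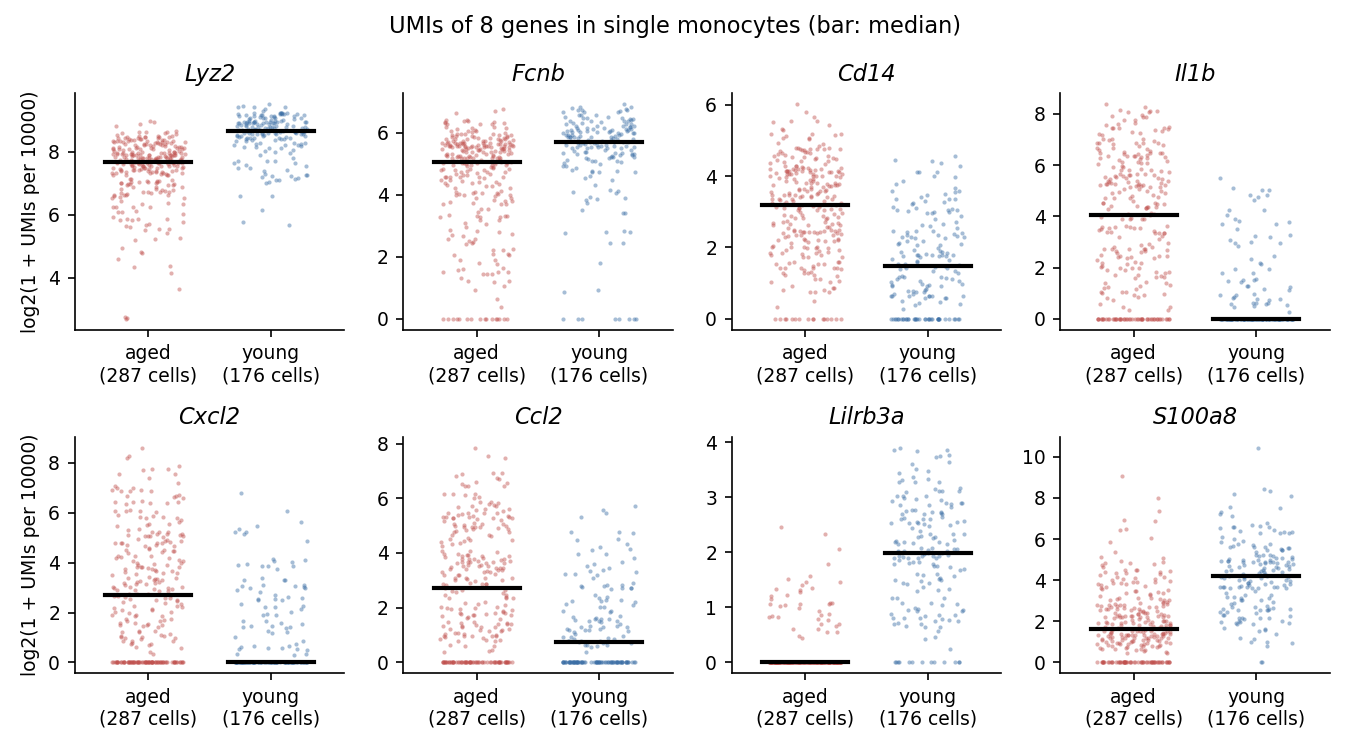
Each point is 1 monocyte, with log2(1 + UMIs per 10000 UMIs of the cell) on the vertical axis and the library on the horizontal axis, and bars mark medians. Aged monocytes have higher medians of Cd14, Il1b, Cxcl2 and Ccl2 and lower medians of Lyz2, Fcnb, Lilrb3a and S100a8, with overlap between libraries in every panel.

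Enzymes of the activated state were higher too. Nos2, the inducible nitric oxide synthase, had 101 CPM in aged monocytes and 1.86 CPM in young monocytes, and Acod1, which makes itaconate, had 117 CPM in aged monocytes, against 2.97 CPM in young ones. Their log2 ratios were 5.77 (4.53 to 7.40) and 5.30 (4.30 to 6.52). Ptgs2, the inducible cyclooxygenase of prostaglandin synthesis, was at 708 CPM in monocytes of the aged library and 150 CPM in those of the young one. Il6, a cytokine of the acute phase response, was at 63.6 CPM in aged monocytes and 4.46 CPM in young monocytes. Ebi3, a subunit shared by cytokines of the interleukin-12 family, stood at 122 CPM in aged monocytes, against 3.35 CPM in young ones. Others were nearer even. Osm, which encodes oncostatin M, had 383 CPM in monocytes of the aged library and 448 CPM in those of the young one, and Tgfb1 had 152 CPM in aged monocytes and 246 CPM in young monocytes.

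The chemokine ligands higher in aged monocytes included those that draw neutrophils and those that draw monocytes. Cxcl2, a neutrophil attractant, was at 1860 CPM in aged monocytes, against 348 CPM in young ones, a log2 ratio of 2.42 (2.32 to 2.52), and had a UMI in 55.4% of aged and 25.6% of young monocytes after thinning, against 1.26% of aged and 0.991% of young B lineage cells. Ccl2, which draws monocytes, was at 1848 CPM in monocytes of the aged library and 417 CPM in those of the young one, a log2 ratio of 2.15 (2.06 to 2.24). Thinned shares for Ccl2 were 56.1% in aged and 27.8% in young monocytes, against 2.21% in aged and 1.15% in young B lineage cells. Ccl3 differed less, with 4620 CPM in aged monocytes and 2002 CPM in young monocytes, and thinned monocytes held it in 85.3% of the aged and 81.2% of the young cells. Cxcl1 had 690 CPM in aged monocytes, against 30.5 CPM in young ones, but 36.9% of the aged counts came from 1 cell, and the log2 ratio of 4.50 was 4.26 when the highest cell of each library was left out. Ccl4 had 304 CPM in monocytes of the aged library and 23.8 CPM in those of the young one, with 27.4% of the aged counts in 1 cell. Ccl5, which draws T cells, had a log2 ratio of 5.78 (3.26 to 11.11) on 1 young count, and 51.9% of its aged counts came from 1 cell. The ligand at least 2-fold lower was Pf4, a chemokine of platelet granules, at 2.39 CPM in aged monocytes and 5.95 CPM in young monocytes.

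The NF-kB feedback list holds inhibitors and survival genes that NF-kB itself switches on. Nfkbia, the inhibitor that holds NF-kB in the cytoplasm, had a median of 22 UMIs per aged and 12 per young monocyte, and a level of 2121 CPM in aged monocytes, against 1090 CPM in young ones. Its log2 ratio of 0.96 (0.90 to 1.02) was just under 2-fold. Sod2, a mitochondrial superoxide dismutase, was at 1223 CPM in aged monocytes, against 338 CPM in young ones. Nfkb1, a subunit of the factor itself, was at 289 CPM in monocytes of the aged library and 90.0 CPM in those of the young one. Traf1, an adaptor of tumour necrosis factor receptors, had a UMI in 45.6% of aged and 2.27% of young monocytes, and a log2 ratio of 5.72 (4.35 to 7.61). Birc3, an inhibitor of apoptosis, had 86.5 CPM in aged monocytes and 13.4 CPM in young monocytes. Tnip3, a binding partner of the NF-kB brake A20, had 19.2 CPM in aged and 0 in young monocytes, at least 17.2-fold higher when the young library is set at 3 counts.

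Promoters of members of these lists were read from RefSeq sequences of the GRCr8 assembly, since NF-kB acts through a 10-base site called kappa B. A match to the kappa B consensus on either strand within 250 bases before the start was found in 8 of 18 NF-kB feedback genes with a promoter (44.4%), 5 of 14 chemokine ligands (35.7%) and 2 of 17 cytokines and inflammatory enzymes (11.8%). Of the genes at least 2-fold higher in aged monocytes it was found in 38 of 430 (8.84%), against 4.12% of 6749 measured genes and 3.54% of all 33469 promoters. The classical monocyte genes had it in 0 of 16. The AP-1 motif, TGANTCA, was in 10.9% of the genes higher in aged monocytes, 4.36% of measured genes and 6.34% of all promoters. The PU.1 motif, GAGGAA, was in 27.0% of the genes higher in aged monocytes, 22.8% of measured genes and 23.3% of all promoters. The NF-kB list was chosen for known targets of the factor, so its share is not independent of the motif, and a match is a description of the letters only. Shown here, as examples of a match near the start in a chemokine pair, a cytokine and an inhibitor, are the 120 bases before the start of 4 genes, all on the minus strand, with kappa B matches in capitals (overlapping matches on both strands joined). The intervals are chr14:17479322-17479441 for Cxcl1, chr14:17467256-17467375 for Cxcl2, chr4:5894576-5894695 for Il6 and chr6:78597073-78597192 for Nfkbia.
Cxcl1: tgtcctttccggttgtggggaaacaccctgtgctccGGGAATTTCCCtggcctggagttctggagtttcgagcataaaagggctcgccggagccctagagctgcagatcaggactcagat
Cxcl2: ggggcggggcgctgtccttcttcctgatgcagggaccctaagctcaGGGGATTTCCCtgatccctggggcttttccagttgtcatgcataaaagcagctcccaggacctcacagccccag
Il6: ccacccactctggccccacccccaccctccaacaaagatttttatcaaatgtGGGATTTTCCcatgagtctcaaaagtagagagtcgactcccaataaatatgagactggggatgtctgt
Nfkbia: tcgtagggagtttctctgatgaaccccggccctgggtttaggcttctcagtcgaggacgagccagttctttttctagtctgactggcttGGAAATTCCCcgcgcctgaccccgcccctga
The match lay 84 to 74 bases before the start in Cxcl1 and 74 to 64 bases before it in Cxcl2, the pair of neutrophil chemokines described above. It lay 68 to 59 bases before the start in Il6 and 31 to 22 bases before it in Nfkbia. Across the 250 bases of these 4 genes the other motifs matched once, PU.1 in Cxcl2 at 231 to 226 bases before the start. The promoter windows of Il1b and Traf1 held no kappa B match.

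Interferon response genes were higher in aged monocytes with smaller ratios. Ifitm1, which blocks virus entry, was at 565 CPM in aged monocytes, against 136 CPM in young ones, and Ifi27 was at 697 CPM in monocytes of the aged library and 184 CPM in those of the young one. Isg15, a ubiquitin-like protein, was at 35.7 CPM in aged monocytes and 1.86 CPM in young monocytes, and 20.1% of the aged counts came from 1 cell. After thinning it had a UMI in 5.96% of aged monocytes and in 0 of 176 young monocytes, for which the exact interval reaches 2.07%, against 3.95% of aged and 1.45% of young B lineage cells. Ifit2, at 14.6 CPM in monocytes of the aged library and 23.4 CPM in those of the young one, lay in the other direction by less than 2-fold. Cxcl10, a chemokine that interferon switches on, was at 169 CPM in aged monocytes and 44.2 CPM in young monocytes. B lineage cells of the aged library had 3.18 Cxcl10 UMIs per cell and those of the young library 0.00189, and the part of free RNA in the monocyte value was not tested.

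Of 19 measured receptors and adaptors that sense microbes outside the rule, 4 were at least 2-fold higher and 3 lower, with a median of -0.05. The shares over all measured genes were 6.78% higher and 9.21% lower. Cd14, one of the genes of the rule, had a median of 9 UMIs per aged and 2 per young monocyte, and a level of 893 CPM in aged monocytes, against 297 CPM in young ones. Tlr2, a receptor for bacterial lipoproteins, was at 250 CPM in aged monocytes, against 67.3 CPM in young ones, a log2 ratio of 1.89 (1.66 to 2.13). The C-type lectins Clec4d and Clec4e, which bind fungal and mycobacterial glycolipids, had log2 ratios of 2.42 (2.18 to 2.66) and 3.29 (2.32 to 4.45). Clec4d had a UMI in 45.6% of aged and 10.8% of young thinned monocytes. Trem1, an amplifier of inflammatory signals, was lower, at 58.0 CPM in monocytes of the aged library and 142 CPM in those of the young one. The formyl peptide receptor Fpr2 was at 10.6 CPM in aged monocytes and 24.9 CPM in young monocytes, and Nod1, a sensor of bacterial cell wall, at 11.2 CPM in aged monocytes, against 23.4 CPM in young ones. The shared adaptor Tyrobp was near even, at 2994 CPM in monocytes of the aged library and 3837 CPM in those of the young one.

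Receptors for migration and growth factors had members past 2-fold in both directions. Of 14 measured migration and adhesion receptors 3 were at least 2-fold higher and 2 lower, and of 15 Fc, complement and phagocytic receptors 5 were higher and 1 lower. Over all measured genes the shares were 6.78% higher and 9.21% lower, and in lists this short the counts of lower members are near that share. Ccr1, the receptor for Ccl3 and Ccl5, was at 166 CPM in aged monocytes, against 33.8 CPM in young ones, a log2 ratio of 2.29 (1.97 to 2.63). Icam1, an adhesion molecule, was at 175 CPM in aged monocytes, against 42.7 CPM in young ones. Itga4, an integrin subunit for entry into tissue, was at 14.9 CPM in monocytes of the aged library and 32.0 CPM in those of the young one, and the complement receptor C5ar1 at 56.1 CPM in aged monocytes and 120 CPM in young monocytes. Csf1r, required by the rule, was nearly equal, at 208 CPM in aged monocytes, against 209 CPM in young ones. Of 21 measured survival and growth factor receptor genes outside the rule, 6 were at least 2-fold higher and 2 lower. Il17ra, a receptor for interleukin-17, was at 166 CPM in monocytes of the aged library and 342 CPM in those of the young one, and Bcl2l11, which promotes apoptosis, was at 101 CPM in aged monocytes and 25.6 CPM in young monocytes. Ccr2 was not analysed here.

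Genes of monocyte identity mostly lay near even. Of 18 measured transcription factor genes, 3 were at least 2-fold higher and 1 lower, with a median of -0.09. The shares over all measured genes, for this and the lists below, were 6.78% higher and 9.21% lower. Spi1, which encodes PU.1, the master factor of myeloid cells, was at 339 CPM in aged monocytes, against 316 CPM in young ones, and Cebpb was at 3000 CPM in monocytes of the aged library and 2714 CPM in those of the young one. Of 15 classical monocyte genes outside the rule, 3 were at least 2-fold higher and 1 lower, and of 16 non-classical monocyte genes 3 were higher and 2 lower. Vcan, a proteoglycan, was at 423 CPM in aged monocytes, against 306 CPM in young ones. Lyz2, the lysozyme gene used by the rule, was lower, with a median of 221 UMIs per aged and 518 per young monocyte and a log2 ratio of -0.96 (-0.97 to -0.95). Mnda had medians of 2 UMIs in aged and 6 in young monocytes, with a log2 ratio of -1.12 (-1.25 to -0.98). Plac8, a small protein abundant in monocytes, was at 4343 CPM in monocytes of the aged library and 4962 CPM in those of the young one.

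Genes of the macrophage state were higher in aged monocytes in part. Of 18 measured macrophage differentiation genes, 8 were at least 2-fold higher and 2 lower, with a median of 0.75. Gpnmb, a glycoprotein of lipid-loaded and damage-responsive macrophages, was at 116 CPM in aged monocytes and 21.9 CPM in young monocytes. Fabp5, a fatty acid binding protein, was at 402 CPM in aged monocytes, against 130 CPM in young ones, and the lysosomal genes Ctsl and Cd63 had log2 ratios of 2.03 and 1.82. Lyve1, a marker of resident macrophages, was at 2.66 CPM in monocytes of the aged library and 16.4 CPM in those of the young one, and Cd68 at 362 CPM in aged monocytes and 644 CPM in young monocytes. Of 28 lysosome and phagosome genes 3 were higher and 3 lower, with a median of -0.21, near the 6.78% higher and 9.21% lower over all measured genes. Osteoclast precursor genes outside the rule, 8 of which were measured, included 0 higher and 2 lower. The defining C1q genes were near 0 in both libraries, as the rule required, with C1qa in 0.697% of aged and 0.568% of young monocytes. Apoe was at 99.5 CPM in aged monocytes, against 45.7 CPM in young ones, and the log2 ratio of 1.12 was -1.56 among cycling cells alone.

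Antigen presentation genes differed member by member, with 3 higher and 2 lower of 12 class II genes and 3 higher and 0 lower of 15 class I genes. Over all measured genes 6.78% were higher and 9.21% lower. RT1-Bb, a class II chain, was at 425 CPM in monocytes of the aged library and 10.4 CPM in those of the young one, while its partner chain RT1-Ba was at 417 CPM in aged monocytes and 376 CPM in young monocytes. The log2 ratio of RT1-Bb was 5.35 in monocytes, 6.04 in C1q-positive macrophages and 4.14 in B lineage cells. Cd74, the class II invariant chain, was at 1576 CPM in aged monocytes, against 1355 CPM in young ones. In class I, RT1-A1 was at 533 CPM in monocytes of the aged library and 145 CPM in those of the young one, and RT1-A2 at 332 CPM in aged monocytes and 640 CPM in young monocytes. The RT1 genes form a family of near-identical and strain-variable copies, so reads can be split among them and single values are uncertain.

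Genes of metabolism and stress held a few large ratios among many near even. At least 2-fold higher were 4 of 20 glycolysis and hypoxia genes and 6 of 18 antioxidant and metallothionein genes, with 0 lower in both lists. The shares over all measured genes were 6.78% higher and 9.21% lower. Abca1, which exports cholesterol, was at 224 CPM in aged monocytes, against 2.23 CPM in young ones, and had a UMI in 75.6% of aged and 3.41% of young monocytes. The log2 ratio was 6.65 (5.52 to 8.10), against 0.28 in C1q-positive macrophages and 2.21 in B lineage cells. Slc2a1, the glucose transporter GLUT1, was at 380 CPM in monocytes of the aged library and 40.1 CPM in those of the young one, while the glycolytic enzymes Ldha, at 1302 CPM in aged monocytes and 1260 CPM in young monocytes, and Aldoa, at 1045 CPM in aged monocytes, against 1044 CPM in young ones, were even. None of 29 measured oxidative phosphorylation genes passed 2-fold in either direction. The metallothionein Mt2A was at 326 CPM in monocytes of the aged library and 21.9 CPM in those of the young one, and Trib3, a pseudokinase of the amino acid stress response, had a log2 ratio of 5.42 (4.28 to 6.88). Slc7a11, the cystine importer, had 29.8 CPM in aged monocytes and 1.12 CPM, from 3 counts, in young monocytes, a log2 ratio of 4.74 (3.16 to 7.04).

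Immediate early genes, which are also switched on by tissue digestion, had a median log2 ratio of -0.06. Of 25 measured, 5 were at least 2-fold higher and 3 lower, beside 6.78% higher and 9.21% lower over all measured genes. In a list this short the count of lower members is near that share. Fos had a median of 3 UMIs per aged and 18 per young monocyte and a log2 ratio of -1.28 (-1.36 to -1.21), with a UMI in 20.8% of aged and 41.2% of young thinned B lineage cells. Jun and Btg2 had log2 ratios of -1.02 and -1.41. Maff and Fosl1 lay the other way, with log2 ratios of 2.73 and 1.63. Atf3, the stress factor named in the study's title for chondrocytes, was at 232 CPM in aged monocytes, against 314 CPM in young ones, a log2 ratio of -0.44 (-0.58 to -0.30), against 1.15 in C1q-positive macrophages. Thinned monocytes held an Atf3 UMI in 27.4% of the aged cells (22.3 to 32.9) and in 34.1% of the young cells (27.1 to 41.6), and these intervals overlap. Cdkn1a, which encodes the p21 brake on division, had 307 CPM in aged monocytes, against 103 CPM in young ones, a log2 ratio of 1.57 (1.38 to 1.77).

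The genes lower in aged monocytes included Lilrb3a and S100a8. Lilrb3a, an inhibitory receptor of the leukocyte immunoglobulin-like family, had a UMI in 14.3% of aged and 92.6% of young monocytes, and a level of 12.2 CPM in aged monocytes, against 301 CPM in young ones. After thinning the shares were 3.86% of aged (1.94 to 6.80) and 46.6% of young (39.1 to 54.2) monocytes, and the log2 ratio was -4.62 (-5.08 to -4.19). The gene belongs to a family with similar copies among which reads could be split. Its log2 ratio was -3.94 in C1q-positive macrophages and -2.96 in B lineage cells. S100a8, a calprotectin subunit abundant in neutrophils, was at 951 CPM in aged monocytes, against 3367 CPM in young ones, with 12.5 UMIs per aged and 51.5 per young cell. B lineage cells, which should lack it, had 10.6 UMIs per aged and 11.5 per young cell at the lower depth given above, and the part of free RNA in the difference was not tested. S100a9 had a log2 ratio of -1.78, and 6 of 12 measured neutrophil markers outside the rule were at least 2-fold lower in aged monocytes, with 0 higher.

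Markers of other lineages were present at low levels and differed between libraries. B lineage markers summed to 53.2 CPM in monocytes of the aged library and 277 CPM in those of the young one, with 9 of 10 measured at least 2-fold lower and Vpreb3 at 0 in both. Stromal markers summed to 635 CPM in aged monocytes and 2562 CPM in young monocytes, with 8 of 11 lower and Cdh5 at 0. Plasma cell markers summed to 228 CPM in aged monocytes, against 69.9 CPM in young ones, and erythroid markers to 1006 CPM in monocytes of the aged library and 1761 CPM in those of the young one. Single cells held much of this: Col1a1 had 95.4% of its young counts in 1 cell, Sparc 36.4% of its young counts, and Apod 99.1% of its aged counts. Of the genes that lead the list toward young, Snorc, Col2a1, Sparc, Prg4 and Col1a1 belong to cartilage or connective tissue and Cd79b to B cells. Without the 8% of cells with the highest doublet scores the log2 ratio was 0.42 for Col1a1, 0.56 for Prg4 and 0.073 for Sparc. Cells with at least 3 UMIs of B lineage, plasma cell, T and NK cell or stromal markers were 41.5% of aged and 71.6% of young monocytes. Without those cells the log2 ratio was 3.55 for Il1b, 2.39 for Cxcl2, 3.17 for Ccl2, 7.21 for Abca1 and -5.01 for Lilrb3a.

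Cell cycle transcripts were present in monocytes of both libraries. At least 3 UMIs of 6 cell cycle genes were found in 120 of 287 aged monocytes, 41.8% (36.0 to 47.8), and in 74 of 176 young monocytes, 42.0% (34.7 to 49.7), and these are called cycling below, by transcripts alone. They were deeper, with a median of 16755.5 UMIs in aged and 18631.5 UMIs in young cycling cells, against 7940 UMIs in the other aged and 10546 UMIs in the other young cells. In thinned cells at least 1 such UMI was present in 42.1% of aged and 39.2% of young monocytes, against 50.4% of aged and 37.5% of young B lineage cells. Of 29 measured cell cycle genes, 0 were at least 2-fold higher in aged monocytes and 1, Plk1, was lower.

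Inflammatory genes were higher in aged cells among cycling and among other monocytes. Il1b had 2335 CPM in aged cycling monocytes, against 52.3 CPM in young cycling ones, a log2 ratio of 5.48 (5.17 to 5.81), and 4694 CPM in the other aged monocytes, against 333 CPM in the other young ones, a log2 ratio of 3.82 (3.67 to 3.97). Among cycling cells 11 of 11 measured chemokine ligands and 20 of 21 NF-kB feedback genes were at least 2-fold higher, against 6.90% of 7679 measured genes. Without cycling cells 10 of 12 chemokine ligands and 15 of 20 NF-kB feedback genes were, against 8.13% of 6682. Cytokines and inflammatory enzymes that high were 9 of 14 among cycling cells and 10 of 16 without them. For interferon response genes the counts were 11 of 20, with 1 lower, among cycling cells and 15 of 26 without them. Of 120 aged cycling cells 83 were in subcluster 3, which held 0 young cells, so these comparisons also set different subclusters against each other. Nos2 had log2 ratios of 5.94 in cycling and 5.70 in other monocytes, and Lilrb3a had -4.29 in cycling and -4.83 in other monocytes. The macrophage differentiation list had a median of -0.29 in cycling cells and 1.16 in the other cells. The difference between these subsets was not tested.

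**Figure D4:**
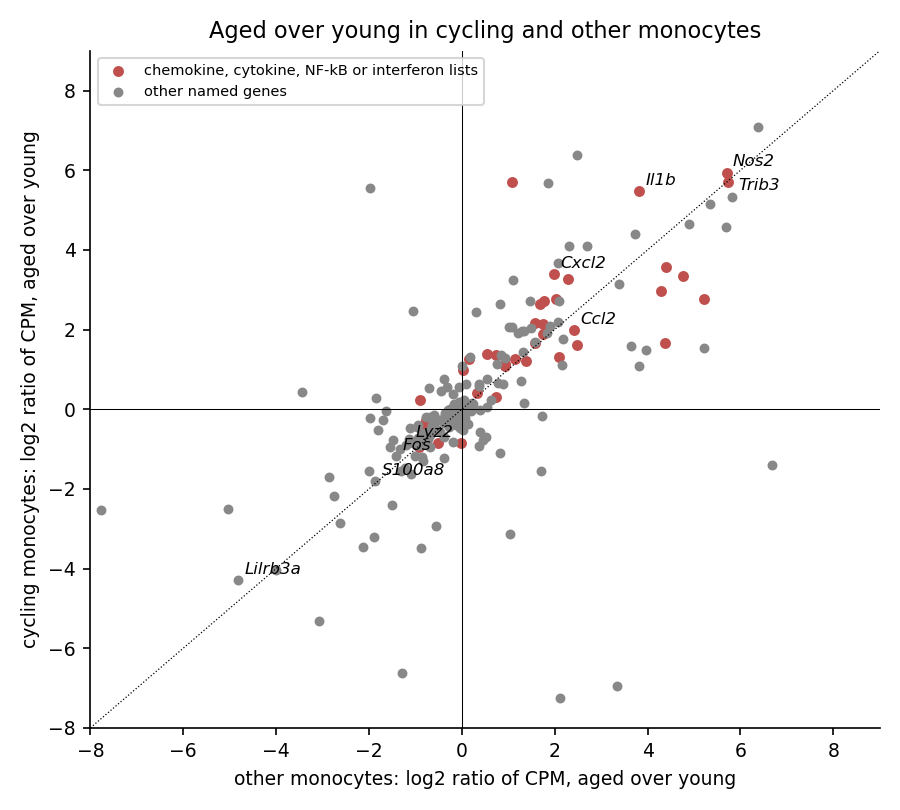
Each point is 1 of 221 named genes with at least 100 summed counts and a count above 0 in each subset, by log2 ratio of CPM aged over young in other monocytes (horizontal axis) and in cycling monocytes (vertical axis), with the dotted line for equal ratios. The sign was the same for 183 genes, and 31 of 38 genes of the inflammatory lists lie above 0 on both axes. Many of these genes were named for large ratios in the sum of the same cells, so part of these counts was fixed in advance.

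Monocytes were then set against the C1q-positive macrophages, of which 104 were aged and 38 young. Within each library 653 of 7323 measured genes (8.92%) were at least 2-fold higher and 442 (6.04%) lower in monocytes in both. Csf1r and C1q counts defined these classes, so those genes are left out. Cell cycle genes were higher, 20 of 29 in both libraries, with median log2 ratios of 2.40 in the aged and 1.36 in the young library. Macrophage differentiation genes were lower, 20 of 22, as were 8 of 12 class II presentation genes and 7 of 13 chemokine ligands. Slpi, an inhibitor of neutrophil proteases, was at 499 CPM in monocytes and 35.9 CPM in macrophages of the aged library, and at 144 CPM in monocytes and 4.24 CPM in macrophages of the young library. Mgst2, an enzyme of lipid mediator conjugation, was at 212 CPM in monocytes and 16.1 CPM in macrophages of the aged library, and at 428 CPM in monocytes and 6.35 CPM in macrophages of the young library. Apoe, a lipid carrier, was at 99.5 CPM in monocytes and 15514 CPM in macrophages of the aged library, and at 45.7 CPM in monocytes and 13903 CPM in macrophages of the young library. Cd163, a scavenger receptor for haemoglobin, had 0 counts in monocytes of both libraries, against 176 CPM in aged and 180 CPM in young macrophages.

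Against granule-rich neutrophil-lineage cells, 2839 of 7861 measured genes (36.1%) were at least 2-fold higher and 386 (4.91%) lower in monocytes of both libraries. Those cells were found by at least 20 UMIs of the granule genes Camp and Ngp and no Csf1r, and monocytes had fewer than 20. Lower granule genes in monocytes are therefore not independent of how the classes were chosen. With the genes of the rule left out, 13 of 14 neutrophil markers were lower, with medians of -7.50 in the aged and -6.83 in the young library. Lcn2, an iron-chelating granule protein, was at 5.59 CPM in monocytes and 7307 CPM in neutrophil-lineage cells of the aged library, and at 7.43 CPM in monocytes and 4272 CPM in neutrophil-lineage cells of the young library. All 10 measured class II presentation genes and 8 of 10 chemokine ligands were higher in monocytes. Irf5, a factor that drives cytokine genes, was at 131 CPM in monocytes and 1.31 CPM in neutrophil-lineage cells of the aged library, and at 195 CPM in monocytes and 4.10 CPM in neutrophil-lineage cells of the young library.

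Against the progenitors, 906 of 8174 measured genes (11.1%) were at least 2-fold higher and 613 (7.50%) lower in monocytes of both libraries. Cell cycle genes were near even, with medians of -0.12 in the aged and -0.08 in the young library, and 0 of 29 higher. Class II presentation genes were higher, 10 of 10. Cd74 was at 1576 CPM in monocytes and 9.29 CPM in progenitors of the aged library, and at 1355 CPM in monocytes and 83.2 CPM in progenitors of the young library. Fn1, which encodes fibronectin, was at 1254 CPM in monocytes and 29.4 CPM in progenitors of the aged library, and at 2357 CPM in monocytes and 25.4 CPM in progenitors of the young library. The granule protease Ctsg was lower, at 7.72 CPM in monocytes and 8336 CPM in progenitors of the aged library, and at 10.4 CPM in monocytes and 6759 CPM in progenitors of the young library. Progenitors were chosen for at least 10 UMIs of Mpo, Elane and Prtn3, so Ctsg is not independent of that choice.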

How the data were processed

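Single-cell 3' UMI counts of 2 libraries, 1 aged and 1 young rat meniscus, were used as the authors deposited them, raw counts per gene and barcode. Per the submitters' processing notes they come from Cell Ranger 6.1.1; the genome build, annotation and strand setting were not given in the sources used here. Barcodes were filtered and monocytes found by the rule in the report, counts were summed per library and scaled to CPM with Python 3.11.15, and a gene was measured with at least 20 summed counts. Log2 ratios carry exact conditional binomial 95% intervals and shares carry Clopper-Pearson intervals; a count of 0 was set at a floor of 3 counts per library. With 1 library per age no p-value was computed. TMM factors came from edgeR 4.0.16 and median-of-ratios factors from DESeq2 1.42.0, as scalings only. Subclusters were made with leidenalg 0.10.2 and scikit-learn 1.9.0, and doublet scores with scanpy 1.11.5. Before shares of cells were compared, cells were thinned to a depth of 2000 UMIs, which left out 2 aged and 0 young monocytes, and 349 aged and 172 young B lineage cells. Scrublet marked 0 cells as doublets and is not relied on, so no doublets were removed; 36 aged and 22 young monocytes were among the 8% of cells with the highest scores. The ratio and its interval were tested on simulated counts without spread between cells or libraries, and the thinning on a small example. The other steps were not tested on simulated data.

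The members and gene lists were chosen with earlier results of these data known. Genes were named by this rule: the 15 largest ratios each way among genes reaching 50 CPM in one library and 100 summed counts, leaving out mitochondrial, ribosomal, haemoglobin, immunoglobulin and uncharacterised genes; genes of the rule, Mnda, Atf3 and Cdkn1a; per list up to 6 members with most counts and 3 largest ratios each way; and against each similar class the 8 largest mean ratios each way. Alternatives covered the cell filter, some limits of the rule, scaling, count minimum, fold and subsets of cells. The limits on Lyz2, on C1q, on Camp and Ngp, and on Cd14, Fcnb and Vcan were made stricter and never looser. The limits on Csf1r and on Mpo, Elane and Prtn3 were not changed. Promoter sequences are from RefSeq, build GRCr8. Some genes that the rule would name are not reported here.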

Additional observations from a re-analysis of the deposited data

Results flagged for a closer look

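The values below lay in opposite directions in monocytes and in C1q-positive macrophages of the same libraries, aged over young, on the log2 scale. The difference between the cell classes was not tested, and the macrophages were 104 aged and 38 young cells. The neutrophil marker list had a median of -1.06 over 14 measured genes in monocytes, Camp and Ngp of the rule included, and 2.30 over 6 measured genes in macrophages, so the medians cover different members. S100a8 had -1.82 in monocytes and 1.90 in macrophages, and S100a9 had -1.78 in monocytes and 2.26 in macrophages. These ratios are of summed counts, and shares of macrophages with a UMI lay the other way. For S100a8 the shares were 43.3% of aged and 100% of young macrophages, with medians of 0 and 2 UMIs. For S100a9 they were 12.5% of aged and 63.2% of young macrophages. Chi3l1, a secreted chitinase-like protein, had -1.27 in monocytes and 2.40 in macrophages, and the granule collagenase Mmp8 had -1.18 in monocytes and 4.87 in macrophages. Prg4, a joint lubricant, had -3.29 in monocytes and 1.43 in macrophages. Tnip3 had 4.10 in monocytes, a value set against the floor of 3 counts in the young library, and -2.36 in macrophages.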

How the results depend on the processing

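No paired analysis was possible because each age has 1 library, and for the same reason no library could be left out. The counting intervals do not cover differences between animals, digestion or free RNA, and depth limits genes below about 20 summed counts. The monocyte share stayed higher in the aged library in each setting tried: it was 8.23% in aged (278 of 3378) and 2.43% in young cells (164 of 6741) when cells needed 1000 genes and a mitochondrial share of no more than 10%, 4.15% in aged (144 of 3467) and 1.52% in young cells (92 of 6040) with the rule applied to cells thinned to 3000 UMIs, and 2.76% in aged and 0.570% in young cells without cells that had 3 or more UMIs of other lineages. All of these share settings left B lineage cells in the total, in the main setting 1614 aged and 5821 young cells. None loosened the limit on Cd14, Fcnb and Vcan, which alone kept out 81 aged and 151 young cells. The direction of the share under those 2 changes was not tested. Genes at least 2-fold higher numbered 319 with 100 summed counts or more, 1045 at 1.5-fold and 187 at 4-fold. Genes lower numbered 462 (801 higher) without cells with other-lineage UMIs, 336 (438 higher) thinned to 2000 UMIs, 242 with 100 summed counts or more, 1337 with at least 1 count in each library, 1941 at 1.5-fold, 142 at 4-fold and 515 (624 higher) without 2 subclusters led by genes of other lineages, a setting that, like cycling cells only and leaving out each gene's highest cell, was chosen after seeing the data.

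Of 94 named genes at least 2-fold apart, 1689 of 1706 values kept their direction and 17 did not. At this size, TMM and median-of-ratios factors and a changed count minimum could not turn a gene's direction. Part of this tally was therefore fixed in advance. Of 10 lists, 183 of 189 medians did and 6 did not. The cause was not tested for any of these. The macrophage marker median was -1.17 among cycling cells alone and the plasma cell marker median -0.37 without the 2 subclusters. The erythroid marker median was 1.24 without the top 8% of doublet scores, 0.32 without cycling cells and 1.26 without the 2 subclusters, and the stromal marker median 0.56 without the top 8%. F13a1 was at -0.13 with the rule on thinned cells. Fabp4 was at -0.14 with the rule on thinned cells, -2.10 without the top 8%, -3.01 without cells with other-lineage UMIs and -1.97 without cycling cells. Apoe was at -1.56 among cycling cells. Mmp8 was at 0.17 with at least 6 UMIs of Cd14, Fcnb and Vcan and 0.28 among cycling cells. Sparc was at 0.073 without the top 8%. Col1a1 was at 1.22 with Camp and Ngp below 5, 0.42 without the top 8%, 2.12 without cycling cells and 0.45 without each gene's highest cell. Prg4 was at 0.56 without the top 8%, 0.17 without the 2 subclusters and 0.44 among cycling cells. Mzb1 was at -0.37 without the 2 subclusters. Medians of the 4 inflammatory lists ranged from 1.74 to 3.17 for chemokine ligands, 1.41 to 2.30 for cytokines and inflammatory enzymes, 1.47 to 1.84 for NF-kB feedback genes and 0.98 to 1.84 for interferon response genes. The medians within subclusters 5 and 6, given in the report, lie below these ranges. So do the ratios of Il1b there. The median over all genes also differs between these subclusters and all monocytes, so these values do not share a baseline. Over all monocytes Il1b ranged from 3.55 to 5.48, Lilrb3a from -5.01 to -4.12, S100a8 from -2.46 to -1.25 and Atf3 from -0.65 to -0.09.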
